A study of Mus musculus with 14 samples.

Results

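Fibroblast growth factor (FGF) signalling in the marrow was described through 6 genes, the ligands Fgf2 and Fgf7, the receptors Fgfr1, Fgfr2 and Fgfr3, and the receptor-like Fgfrl1. They were found by symbol among the 55401 genes counted in each of 14 bulk RNAseq samples, all 6 are among the 23441 genes of the deposited matrix, and all 6 were among the 17671 genes that passed the filter on low counts. The samples were marrow plugs flushed from distal tibiae, labelled bone marrow adipose tissue, of male mice on a mixed C57BL6/SJL background at 24 weeks of age, each library pooled from a pair of mice. BMAd-Pnpla2+/+ mice gave 4 libraries fed ad libitum (AL) and 4 under caloric restriction (CR), and BMAd-Pnpla2-/- mice gave 3 libraries AL and 3 CR, where CR was a 30% restriction for 6 weeks. In BMAd-Pnpla2-/- mice the floxed gene for the triglyceride lipase ATGL is deleted by a Cre that follows adiponectin and becomes active only in cells with a history of Osterix expression, so that deletion is aimed at bone marrow adipocytes (BMAds). The Cre cassette in the adiponectin gene lowers circulating adiponectin, and recombination is incomplete in young animals of this model. Mice of both genotypes carry Osterix-FLPo and the Cre cassette, mostly on both alleles, and the BMAd-Pnpla2+/+ littermates lack the floxed alleles. The libraries hold RNA of all the cells of the plug, so a lower level from fewer cells of a type and a lower level from less RNA per cell cannot be told apart.

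Most FGFs are secreted proteins that bind receptor tyrosine kinases together with heparan sulphate chains at the cell surface. Binding brings receptors into pairs, which phosphorylate docking proteins such as FRS2 and switch on the MAP kinase, PI3 kinase and phospholipase C gamma routes, while Sprouty and Spred proteins, dual-specificity phosphatases and ETS factors of the Etv family are known targets that feed back on the signal. In bone, FGF2 is made by osteoblast lineage and stromal cells and stays bound to the matrix, FGF7 (keratinocyte growth factor) is a stromal product that acts on the epithelial splice form of FGFR2, and FGFR1 to FGFR3 control growth and differentiation of skeletal cells. FGFRL1 binds FGFs and heparan sulphate but lacks the kinase domain. The counts are per gene, so splice forms of the receptors were not resolved.

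The genes lie on 5 chromosomes of GRCm38 (mm10), with gene models from GENCODE M21. Fgf2 (ENSMUSG00000037225.13) occupies chr3:37348346-37410108 on the plus strand, and 13.2% of its 6782 exonic bases are shared with other genes, mostly with the 3' end of Nudt6 on the opposite strand. Fgf7 (ENSMUSG00000027208.14) lies at chr2:126034658-126091185 on the plus strand with 3248 exonic bases, none of them shared. Fgfr1 (ENSMUSG00000031565.18) is at chr8:25513654-25575718, plus strand, with 9875 exonic bases. The model of Fgfr2 (ENSMUSG00000030849.18) runs from 130162451 to 133123350 on the minus strand of chromosome 7, because its annotated exons reach into Ctbp2, with which it shares 314 of 10328 exonic bases. Fgfr3 (ENSMUSG00000054252.18) at chr5:33721674-33737068, plus strand, shares 13.9% of 7158 exonic bases with a gene on the opposite strand. Fgfrl1 (ENSMUSG00000008090.14) at chr5:108692382-108706924, plus strand, has 2782 exonic bases and shares none.

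The 250 bases before the RefSeq start of transcription (GRCm38.p6) are shown for both ligands, for Fgfrl1 and for Fgfr2, because these genes moved together with diet while their upstream sequences range from GC-rich to GC-poor. Starts were listed for 5 of the 6 genes, not for Fgfr1. The windows of Fgf2, Fgfrl1 and Fgfr2 lie inside the GENCODE gene models, which begin further upstream. Each window thus stands before a listed start, and starts further upstream are not shown. Capitals mark the GC box GGGCGG and the CCAAT box CCAAT on either strand, that is also as CCGCCC and ATTGG, and all lines read 5' to 3' on the strand of the gene.
Fgf2, chr3:37348403-37348652, plus strand: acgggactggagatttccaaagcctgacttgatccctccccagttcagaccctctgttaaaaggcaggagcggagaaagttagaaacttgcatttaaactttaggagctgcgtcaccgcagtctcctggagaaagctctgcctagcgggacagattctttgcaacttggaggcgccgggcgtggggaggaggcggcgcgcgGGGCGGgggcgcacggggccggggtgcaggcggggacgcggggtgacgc
Fgf7, chr2:126034408-126034657, plus strand: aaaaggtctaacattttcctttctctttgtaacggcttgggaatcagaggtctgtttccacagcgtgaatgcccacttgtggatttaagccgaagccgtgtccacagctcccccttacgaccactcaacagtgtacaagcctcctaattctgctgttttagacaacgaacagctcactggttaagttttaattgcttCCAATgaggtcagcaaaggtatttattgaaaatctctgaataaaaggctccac
Fgfrl1, chr5:108693979-108694228, plus strand: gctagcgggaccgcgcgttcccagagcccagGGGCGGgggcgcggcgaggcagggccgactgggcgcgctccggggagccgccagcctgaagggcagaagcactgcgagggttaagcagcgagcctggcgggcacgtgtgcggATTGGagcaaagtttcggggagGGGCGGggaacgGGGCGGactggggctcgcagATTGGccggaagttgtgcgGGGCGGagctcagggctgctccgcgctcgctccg
Fgfr2, chr7:130266809-130267058, minus strand: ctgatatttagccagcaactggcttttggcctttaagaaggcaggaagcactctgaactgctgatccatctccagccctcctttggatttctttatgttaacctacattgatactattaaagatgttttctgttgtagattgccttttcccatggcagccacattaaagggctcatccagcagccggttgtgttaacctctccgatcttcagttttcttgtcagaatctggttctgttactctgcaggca

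The window of Fgfrl1 has a GC content of 73.6% with 30 CpG sites, 4 GC boxes and 2 CCAAT boxes. That of Fgf2 has 62.4% GC, 20 CpG sites and 1 GC box, whereas that of Fgf7 has 43.6% GC, 6 CpG sites, no GC box and 1 CCAAT box. Fgfr2 has 44% GC, 2 CpG sites and neither box. Fgfr3 is listed with 2 starts, of 66.8% GC with 3 GC boxes and of 72.8% GC with 2 GC boxes. Across 32851 windows of the same length the median GC content was 52.4% with 6 CpG sites, 32.7% of windows held the GC box, 33.9% the CCAAT box and 12.4% the TATA box TATAAA, which none of the windows of these genes held in either orientation. A match describes letters only.

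Between 25282327 and 27475056 read pairs were sequenced per library, of which 18898324 to 21665553 were counted on a gene without regard to strand. In 11 libraries 4.30 to 4.62% of stranded gene reads lay on the first strand, while in the 3 BMAd-Pnpla2-/- CR libraries 50.1 to 50.5% did, so these 3 carry no strand information and unstranded counts were compared in all 14. No other group holds such a library. Pnpla2 itself ranged from 174 to 301 CPM (a gene's count as a part of the scaled library total) in BMAd-Pnpla2+/+ AL, 502 to 1015 in BMAd-Pnpla2+/+ CR, 131 to 170 in BMAd-Pnpla2-/- AL and 177 to 267 in BMAd-Pnpla2-/- CR libraries. The labelled tissue carried adipocyte genes, with summed levels of 7 adipocyte markers from 296 to 4568 CPM, beside much larger amounts of blood cell RNA, 6 neutrophil markers summing to between 10346 and 25704 CPM. No source states that the libraries of a group came from separate litters or runs, and the p-values measure the spread between these libraries.

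All levels are CPM scaled by the trimmed mean of M values (TMM). Per kilobase of exon, Fgfrl1 was the most abundant of the 6, with a mean of 14.2 CPM per kb over the 14 libraries, followed by Fgfr1 at 9.56, Fgfr2 at 7.38, Fgf7 at 3.22, Fgfr3 at 2.03 and Fgf2 at 1.45. This order was found in 12 of 14 libraries, and in 1 library each Fgf7 and Fgfr3, or Fgfr3 and Fgf2, changed places. With the longest transcript as the length, the order was Fgfr1 at 18.7, Fgfr2 at 17.2 and Fgfrl1 at 17.0 CPM per kb, so which of the 3 stood first rested on the gene model. The low place of both ligands and Fgfr3 did not: with either length they lay at 1.45 to 3.91 CPM per kb. Within BMAd-Pnpla2+/+ AL, Fgfr1 at 5.57 ± 1.37 (SD, n = 4) and Fgfr2 at 4.40 ± 0.400 CPM per kb overlapped, the only neighbours in the order of means whose ranges of mean ± SD met in that group. Fgfr3 at 1.22 ± 0.192 and Fgf2 at 0.784 ± 0.139 CPM per kb stayed apart. In BMAd-Pnpla2+/+ CR libraries the ranges were wider, and those of Fgfrl1 at 23.7 ± 7.21 (SD, n = 4), Fgfr1 at 16.7 ± 6.66 and Fgfr2 at 11.6 ± 3.96 CPM per kb met in turn, as did those of Fgf7 at 3.90 ± 0.834, Fgfr3 at 3.21 ± 1.69 and Fgf2 at 2.41 ± 1.04.

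All 6 genes were higher under CR than under AL in BMAd-Pnpla2+/+ marrow. The receptors, Fgfrl1 and Fgf2 were 2.57 to 3.07 times as high as in AL libraries, and Fgf7 was 1.59 times as high. All 6 passed edgeR's quasi-likelihood test at a Benjamini-Hochberg adjusted p under 0.05 over all 17671 genes tested, where 15.1% of genes were called higher under CR. With a log2 fold change over 1 as a further criterion, 5 of the 6 were called, all but Fgf7, against 7.33% of all genes. The median log2 fold change of the 6 was 1.40 beside 0.00 for all genes tested. Fgf2, Fgfr1, Fgfr2, Fgfr3 and Fgfrl1 are in a list of skeletal development genes that the study drew up on these same samples, and Fgf7 is not in that list. All 6 genes, Fgf7 included, were chosen with earlier results of these data known. Their direction and the number called are therefore not independent evidence.

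**Figure D1:**
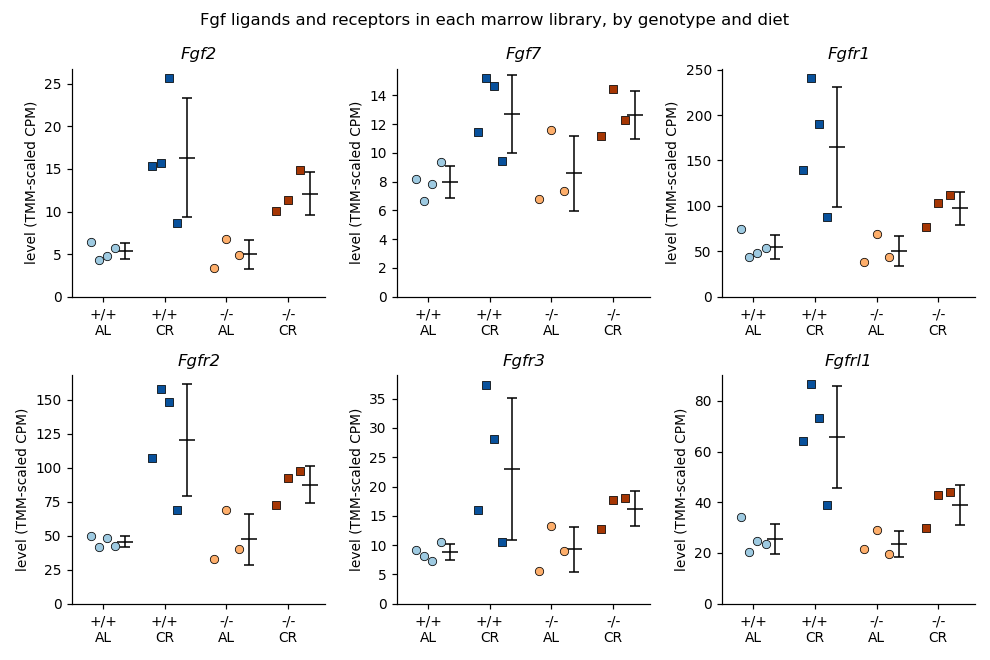
Level of each gene in TMM-scaled CPM (vertical axis, from 0) in the libraries of the 4 groups (horizontal axis), with 1 point per library and the mean ± SD beside them. Every +/+ CR library lies above every +/+ AL library in all 6 panels, the fourth CR library being the lowest of its group each time. The -/- CR libraries lie below the other 3 +/+ CR libraries for Fgf2, Fgfr1, Fgfr2 and Fgfrl1, and the share of all genes for which they do was not computed.

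Fgf2, the heparin-binding ligand stored in bone matrix, had 82 to 133 counts per library in BMAd-Pnpla2+/+ AL and 163 to 577 in BMAd-Pnpla2+/+ CR. It stood at 6.42, 4.33, 4.79 and 5.74 CPM in the 4 BMAd-Pnpla2+/+ AL libraries and at 15.4, 15.7, 25.7 and 8.60 CPM in the 4 CR libraries. The groups did not overlap, and the fourth CR library was closest to AL. The log2 fold change was 1.62 ± 0.29 (SE, adjusted p = 0.00365). In the 11 libraries with strand, 34% of the reads that STAR assigned to Fgf2 by either strand setting, 1218 against 2369 on the strand of the gene, lay on the opposite strand, from 21.9 to 62.2% by library, whereas the share was 0.624 to 1.89% for the other 5 genes. Nudt6, whose 3' exons overlap Fgf2 from the opposite strand, had 24 to 115 unstranded counts of its own. Counting without strand gave 2120 reads to Fgf2 in these libraries, since a read on exons of both genes then belongs to neither. By library the unstranded count could be lower or higher than that on the strand of the gene. It was 133 against 149 in BMAd-Pnpla2+/+ AL replicate 1 and 93 against 79 in replicate 3, so the levels given can include opposite-strand reads. With the reverse-strand counts of the 11 libraries with strand alone, the log2 fold change of Fgf2 was 1.81 and its adjusted p 0.00765. For Fgf2 in BMAd-Pnpla2-/- CR libraries no such count by strand is possible.

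Fgf7, the stromal ligand, changed least. It was at 8.16, 6.65, 7.83 and 9.34 CPM in BMAd-Pnpla2+/+ AL and at 11.5, 15.2, 14.6 and 9.44 CPM in BMAd-Pnpla2+/+ CR libraries. The lowest CR library, at 9.44, lay just above the highest AL library, at 9.34. Its log2 fold change was 0.67 ± 0.20 (SE, adjusted p = 0.0262), and without any 1 of 4 libraries, AL replicates 2 and 3 and CR replicates 2 and 3, the adjusted p lay between 0.0699 and 0.0785.

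Fgfr1, the receptor most widely expressed in mesenchymal cells, reached the highest CPM of the 6. Its levels were 74.2, 43.5, 48.2 and 54.0 CPM in BMAd-Pnpla2+/+ AL and 139, 241, 191 and 88.1 CPM in BMAd-Pnpla2+/+ CR libraries, a log2 fold change of 1.58 ± 0.29 (SE, adjusted p = 0.00387). The AL library with the most Fgfr1, replicate 1, was still below the lowest CR library. Fgfr2 ran from 41.5 to 49.8 CPM in the AL libraries and was at 107, 158, 148 and 68.7 CPM under CR. Its log2 fold change was 1.41 ± 0.26 (SE, adjusted p = 0.00387).

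Fgfr3, the receptor known for restraining growth plate chondrocytes, was the scarcest receptor. It stood at 9.17, 8.07, 7.31 and 10.5 CPM under AL and at 15.9, 37.4, 28.1 and 10.6 CPM under CR in BMAd-Pnpla2+/+ mice. Its CR libraries were widely dispersed, beginning just above the AL range, and the log2 fold change was 1.39 ± 0.35 (SE, adjusted p = 0.0142). Of the chondrocyte markers, Acan and Col9a1 did not exceed 0.210 CPM in any library, and Col2a1 ranged from 2.51 to 67.6 CPM. The 5 listed markers summed to 48.0 to 115 CPM under AL and 83.6 to 378 CPM under CR in BMAd-Pnpla2+/+ libraries. The 3 that passed the filter had a median log2 fold change of 1.32 there, and none was called. The part of chondrocytes in the values of Fgfr3 was not tested. Fgfrl1 was at 34.1, 20.3, 24.7 and 23.5 CPM under AL and at 64.2, 86.6, 73.4 and 39.1 CPM under CR, with no overlap, a log2 fold change of 1.36 ± 0.24 (SE) and the lowest adjusted p of the 6, 0.00323. In BMAd-Pnpla2+/+ mice every CR library exceeded every AL library for all 6 genes, as it did for 12.4% of all genes tested.

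In BMAd-Pnpla2-/- marrow the 6 genes were again higher on average under CR, by 1.47 to 2.42 times, but 1 of 6, Fgf2, passed the test, where 6.04% of all genes were called higher. The 3 CR libraries carry no strand information and the 3 AL libraries do, so diet and library type cannot be told apart in this genotype. The log2 fold change of Fgf2 was also the only one over 1 among the 6, and 2.62% of all genes were higher under both criteria. The median log2 fold change of the 6 was 0.85 beside 0.05 for all genes. An unadjusted p under 0.05 was reached by 5 of the 6, all but Fgfr3. Every CR library exceeded every AL library for Fgf2, Fgfr1, Fgfr2 and Fgfrl1, 4 of 6 genes, and 20.5% of all genes did so in this smaller comparison.

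Fgf2 rose from 3.37, 6.74 and 4.87 CPM in the 3 BMAd-Pnpla2-/- AL libraries to 10.1, 11.3 and 14.9 CPM in the 3 CR libraries, with no overlap. The log2 fold change was 1.28 ± 0.34 (SE, adjusted p = 0.0311), and the call was lost without AL replicate 1 or 3 or CR replicate 2 or 3, where the adjusted p ran from 0.0679 to 0.138. Fgf7 was at 6.80, 11.6 and 7.35 CPM under AL and 11.2, 14.5 and 12.3 CPM under CR. The second AL library lay within the CR range, and the adjusted p was 0.120 at a log2 fold change of 0.56 ± 0.23 (SE). Fgfr1 was at 38.0, 68.8 and 43.7 CPM under AL and at 76.8, 103 and 112 CPM under CR, a log2 fold change of 0.96 ± 0.33 (SE, adjusted p = 0.0744). Fgfr2 was at 33.1, 68.7 and 40.0 CPM under AL and at 72.4, 92.7 and 97.5 CPM under CR. Its log2 fold change of 0.89 ± 0.29 (SE) had an adjusted p of 0.0655. Both receptors separated the diets narrowly, through AL replicate 2.

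Fgfr3 overlapped between diets in BMAd-Pnpla2-/- mice, with 5.60, 13.2 and 8.94 CPM under AL and 12.8, 17.7 and 18.1 CPM under CR, and an adjusted p of 0.201 at a log2 fold change of 0.81 ± 0.40 (SE). Fgfrl1 went from 21.5, 29.2 and 19.6 CPM to 29.9, 43.0 and 44.1 CPM, a log2 fold change of 0.74 ± 0.27 (SE, adjusted p = 0.0928). AL replicate 2 was the highest of its group for all 6 genes. Without it, 4 of the 6 were called higher under CR, namely Fgf2, Fgf7, Fgfr1 and Fgfr2, as were 886 of 18207 genes. Without BMAd-Pnpla2+/+ CR replicate 4, which is in neither group compared here, 4 were called as well (Fgf2, Fgfr1, Fgfr2 and Fgfrl1). In that fit 1333 of 17618 genes were called higher. Without BMAd-Pnpla2+/+ CR replicate 2 there were 3, beside 1238 of 17568 genes. None of the 6 was called without BMAd-Pnpla2-/- AL replicate 1 or 3 or BMAd-Pnpla2-/- CR replicate 2 or 3. Those fits, in turn, called 125 of 18208, 155 of 18204, 481 of 18199 and 121 of 18138 genes higher. DESeq2 called 3 of the 6, beside 1429 of 17669 genes.

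Under AL no difference between the genotypes was found in the 6 genes, within wide limits. No log2 difference of BMAd-Pnpla2-/- from BMAd-Pnpla2+/+ exceeded 0.13 in size, from -0.13 for Fgfr1 to 0.10 for Fgf7, with 95% intervals that reached -0.80 for Fgfr1 and 0.89 for Fgfr3. None of the 6 passed edgeR's test, none had an unadjusted p under 0.05 and none was called by DESeq2. Of all 17671 genes 0, that is 0%, were called by edgeR, 700 had an unadjusted p under 0.05, and DESeq2 called 19.

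Under CR, 5 of the 6 genes were lower on average in BMAd-Pnpla2-/- than in BMAd-Pnpla2+/+ marrow, and Fgf7 was at the same mean. Here too the genotypes differ in library type, and genotype and library type cannot be told apart. Fgfr1 averaged 97.4 ± 18.3 CPM (SD, n = 3) against 165 ± 65.8 (SD, n = 4), a log2 difference of -0.76 with a 95% interval from -1.42 to -0.09. Fgfrl1 averaged 39.0 ± 7.87 against 65.9 ± 20.1 CPM, a log2 difference of -0.76 from -1.31 to -0.21. None of the 6 was called by edgeR, where 0.0113% of all genes, 2 of 17671, were. Fgfr1 and Fgfrl1 had unadjusted p-values of 0.0288 and 0.0107 and adjusted p-values of 0.171 and 0.117, and DESeq2 called Fgfrl1 alone among the 6 and 1638 genes in all. The log2 differences were -0.51 for Fgfr3, -0.46 for Fgfr2, -0.43 for Fgf2 and -0.00 for Fgf7. Markers of other cells differed alongside without being called: all 7 adipocyte markers (median log2 difference -0.91) and all 6 endothelial markers (-0.44) were lower on average, and all 5 erythroid markers (0.58) and 4 skeletal muscle markers (2.69) were higher, beside a median of -0.01 for all genes. Under AL, where no difference in the 6 genes was found, the medians of these 4 lists were, in turn, -1.31, -0.10, 0.20 and 0.01. There too all 7 adipocyte markers were lower on average and none was called. The adipocyte markers summed to 1183 to 1912 CPM in BMAd-Pnpla2-/- and 1838 to 4568 CPM in BMAd-Pnpla2+/+ libraries, and their part in the values of the 6 genes was not tested.

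All 6 genes overlapped between the genotypes, 4 of them through 1 library. BMAd-Pnpla2+/+ CR replicate 4 lay inside the range of the BMAd-Pnpla2-/- CR libraries for Fgfr1 and Fgfrl1 and below it for the other 4 genes, while the other 3 BMAd-Pnpla2+/+ CR libraries lay above that range for Fgf2, Fgfr1, Fgfr2 and Fgfrl1. Without that library, edgeR called Fgfr1 (log2 difference -0.97, adjusted p = 0.0375) and Fgfrl1 (-0.94, adjusted p = 0.0242), and the number of genes called among all rose from 2 to 2112. With replicate 4 included, 8.06% of all genes had every BMAd-Pnpla2-/- CR library below every BMAd-Pnpla2+/+ CR library, and none of the 6 did. The share of all genes that separate in this way without replicate 4 was not computed, so the separation of 4 genes has no background beside it.

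**Figure D2:**
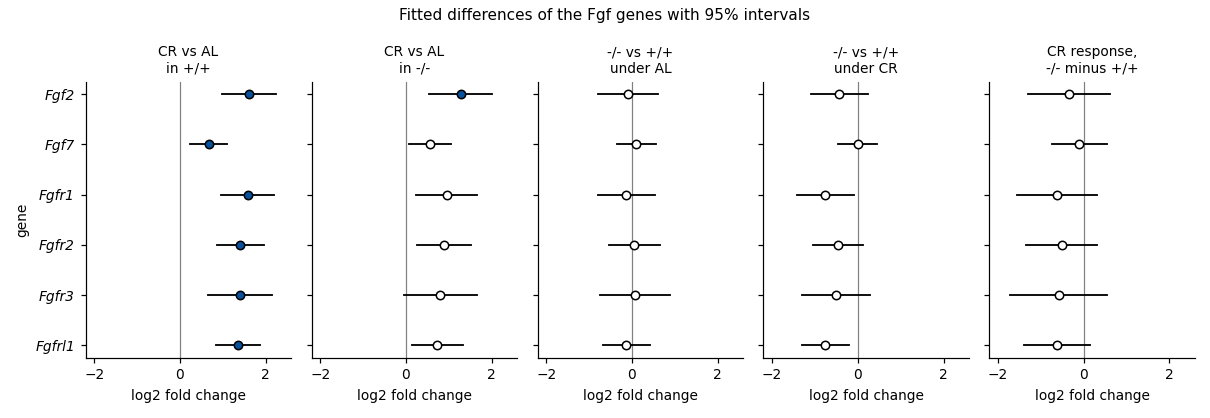
Fitted log2 fold change (horizontal axis) of each gene (vertical axis) in 5 comparisons, with 95% intervals; filled points have an adjusted p under 0.05. All 6 points are filled for CR in +/+, 1 of 6 for CR in -/-, and none in the 3 panels that compare genotypes or responses.

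The response to CR was smaller in BMAd-Pnpla2-/- mice for all 6 genes, but the difference in response was not shown by the test, and it cannot be told apart from the library type of the BMAd-Pnpla2-/- CR group. The interaction was -0.63 ± 0.43 (SE) for Fgfr1, -0.62 ± 0.36 for Fgfrl1, -0.59 ± 0.53 for Fgfr3, -0.52 ± 0.39 for Fgfr2, -0.34 ± 0.45 for Fgf2 and -0.11 ± 0.30 for Fgf7, all on the log2 scale. Adjusted p-values ran from 0.552 to 0.917 and no unadjusted p was under 0.05. The 95% interval ran from -1.56 to 0.31 for Fgfr1 and from -1.40 to 0.15 for Fgfrl1. edgeR called 0 of 17671 genes (0%) here with 1836 at an unadjusted p under 0.05, and DESeq2 called 65, none of them among the 6. Averaged over both genotypes, all 6 genes rose with CR, with log2 fold changes from 0.61 ± 0.15 (SE) for Fgf7 to 1.45 ± 0.23 for Fgf2 and adjusted p-values from 0.000646 to 0.00742, in a comparison where 19.6% of all genes were called higher.

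Ratios within a library do not depend on its scaling. Per kilobase, Fgf2 was below Fgf7 in every library, with a mean log2 ratio of -1.66 ± 0.17 (SD) over the 4 BMAd-Pnpla2+/+ AL libraries and of -0.78 ± 0.42 (SD) over the 4 CR libraries. The ratio ran from -1.77 to -1.41 under AL and from -1.20 to -0.25 under CR, so the ligands drew closer without overlap between the diets. In BMAd-Pnpla2-/- mice it ran from -2.07 to -1.66 under AL and from -1.42 to -0.79 under CR, again without overlap. In this genotype diet and library type cannot be told apart in any ratio. The ratios between receptors differed less between diets. The log2 ratio of Fgfr1 to Fgfr2 was 0.32 ± 0.26 (SD) and 0.49 ± 0.12 in BMAd-Pnpla2+/+ AL and CR, and 0.17 ± 0.10 and 0.21 ± 0.06 in BMAd-Pnpla2-/- AL and CR. Fgfr1 exceeded Fgfr3 by a log2 ratio of 1.83 to 2.66 in all 14 libraries. Fgfrl1 per Fgfr1 was 0.73 ± 0.10 (SD) under AL and 0.54 ± 0.17 under CR in BMAd-Pnpla2+/+ mice, with overlap. It ran, in BMAd-Pnpla2-/- mice, from 0.59 to 1.01 under AL and from 0.47 to 0.56 under CR, without overlap. The share of all gene pairs whose ratios separate the diets was not computed.

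**Figure D3:**
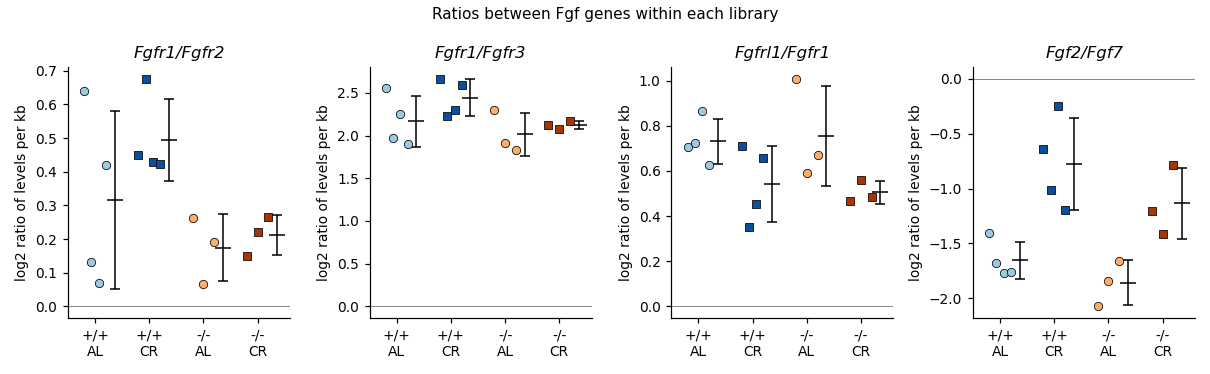
Log2 ratio of levels per kilobase of exon between pairs of genes (vertical axis, 0 marked by a line) in each library of the 4 groups, with the mean ± SD beside the points. Fgf2/Fgf7 separates the diets within each genotype, at most -1.41 under AL and at least -1.20 under CR in +/+ and at most -1.66 and at least -1.42 in -/- mice, and Fgfrl1/Fgfr1 separates them in -/- mice, 0.59 to 1.01 under AL and 0.47 to 0.56 under CR, while the other ratios overlap between the diets. In -/- mice the libraries of the diets also differ in type, and the share of all gene pairs that separate was not computed.

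Over the 14 libraries, log2 CPM of the 5 genes other than Fgf7 correlated with one another at Pearson's r from 0.895 to 0.987, and Fgf7 with each of them at 0.842 to 0.932. These values describe libraries that share diet groups and cell makeup. Among 13046 genes averaging 50 counts or more per library, the 3 most like Fgfr1 were Sod3 (r = 0.995), an extracellular superoxide dismutase, Hspg2 (0.994), the heparan sulphate proteoglycan perlecan, and Dlc1 (0.992), a GTPase-activating protein. Those most like Fgfr2 were Kirrel (0.989), the osteoblast cadherin Cdh11 (0.989) and Msrb3 (0.988). Rgma (0.992), Hspg2 (0.989) and Fam160a1 (0.988) were the nearest to Fgfrl1. For Fgfr3 they were the giant cadherin Fat4 (0.979), the Hippo pathway effector Yap1 (0.977) and the noncoding RNA Firre (0.977). Fgf2 ran with the nuclear receptor Rora (0.986), the YAP partner Tead1 (0.983) and Spaca6 (0.982). Fgf7 ran with the BMP antagonist Chrdl1 (0.970), the PI3 kinase subunit Pik3r3 (0.969) and Adap2os (0.963).

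The rest of the pathway was followed through 57 listed genes, of which 56 are in the files and 36 passed the filter. Of the 20 other genes of the Fgf family, not all of which code for secreted ligands, 4 passed. They were Fgf1, Fgf3, Fgf11 and Fgf13, and none of them was called with CR in either genotype by edgeR. Fgf13 came nearest, with a log2 fold change of 0.60 ± 0.25 (SE, adjusted p = 0.0825) in BMAd-Pnpla2+/+ and of -0.14 ± 0.29 in BMAd-Pnpla2-/- mice. Fgf1 overlapped between diets, at 5.38 to 10.8 CPM in BMAd-Pnpla2+/+ AL and 5.70 to 11.7 CPM in BMAd-Pnpla2+/+ CR libraries. The median log2 fold change of the 4 was 0.36 in BMAd-Pnpla2+/+ mice, and it was -0.15 in BMAd-Pnpla2-/- mice. The endocrine ligands Fgf21 and Fgf23 had at most 2 and 10 counts in any library and did not pass. Fgfr4 had at most 5 counts and the co-receptor Kl at most 2, so both stood near the floor of detection.

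Klb, the co-receptor beta-klotho that lets endocrine FGFs signal through FGFR1 and is made by adipocytes and hepatocytes, had the largest log2 fold change among the 36 tested genes in either genotype. It was at 2.70, 0.211, 0.360 and 0.664 CPM in BMAd-Pnpla2+/+ AL and at 10.5, 10.7, 14.4 and 4.49 CPM in BMAd-Pnpla2+/+ CR libraries, a log2 fold change of 3.33 ± 0.61 (SE, adjusted p = 0.0040). In BMAd-Pnpla2-/- mice it went from 0.109, 0.474 and 0.159 CPM to 2.48, 3.79 and 4.56 CPM, a log2 fold change of 3.83 ± 0.85 (SE, adjusted p = 0.0171). The AL values rest on 2 to 56 counts per library. The groups of each genotype did not overlap.

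Of 13 heparan sulphate proteoglycans and FGF carriers 11 were tested, and 4 rose with CR in BMAd-Pnpla2+/+ mice while none fell, where 15.1% of all genes were called higher. They were Hspg2 (log2 fold change 1.65 ± 0.34, SE), the glypicans Gpc6 (1.43 ± 0.36) and Gpc4 (1.02 ± 0.19), and the syndecan Sdc2 (0.90 ± 0.19). Hspg2 went from 116 to 248 CPM in the AL libraries to 252 to 735 CPM in the CR libraries. In BMAd-Pnpla2-/- mice 2 of the 11 rose, Sdc2 (0.88 ± 0.22) and Gpc4 (0.73 ± 0.21), against 6.04% of all genes. The median of the list was 0.51 for BMAd-Pnpla2+/+ mice and 0.49 for BMAd-Pnpla2-/- mice.

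Of 9 docking and relay genes, 4 rose with CR in BMAd-Pnpla2+/+ mice, Frs3 (0.78 ± 0.26), Plcg1 (0.67 ± 0.17), Sos1 (0.27 ± 0.08) and Frs2 (0.20 ± 0.07), with a list median of 0.20, against the same 15.1% of all genes. None of the 9 was called in BMAd-Pnpla2-/- mice. Of 11 feedback and ETS target genes tested, 7 rose and none fell in BMAd-Pnpla2+/+ mice, again against 15.1% of all genes, and the list median was 0.78 on the log2 scale. The largest were the Sprouty gene Spry4 (1.11 ± 0.21), the FGF signal inhibitor Il17rd (1.10 ± 0.33) and the ETS factors Etv1 (1.02 ± 0.28) and Etv4 (0.85 ± 0.22). Spry4 was at 7.54 to 9.70 CPM under AL and 12.3 to 23.9 CPM under CR. In BMAd-Pnpla2-/- mice 2 of the 11 rose, Etv1 (1.21 ± 0.32) and Spred1 (0.94 ± 0.21), against 6.04% of all genes, and the median was 0.44. Dusp6, a phosphatase gene often used as a readout of FGF signalling and singled out after its values were seen, had log2 fold changes of -0.05 ± 0.13 and -0.03 ± 0.15 in BMAd-Pnpla2+/+ and BMAd-Pnpla2-/- mice and was not called. No gene of the 5 lists was called by edgeR between genotypes under either diet or in the interaction.

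**Figure D4:**
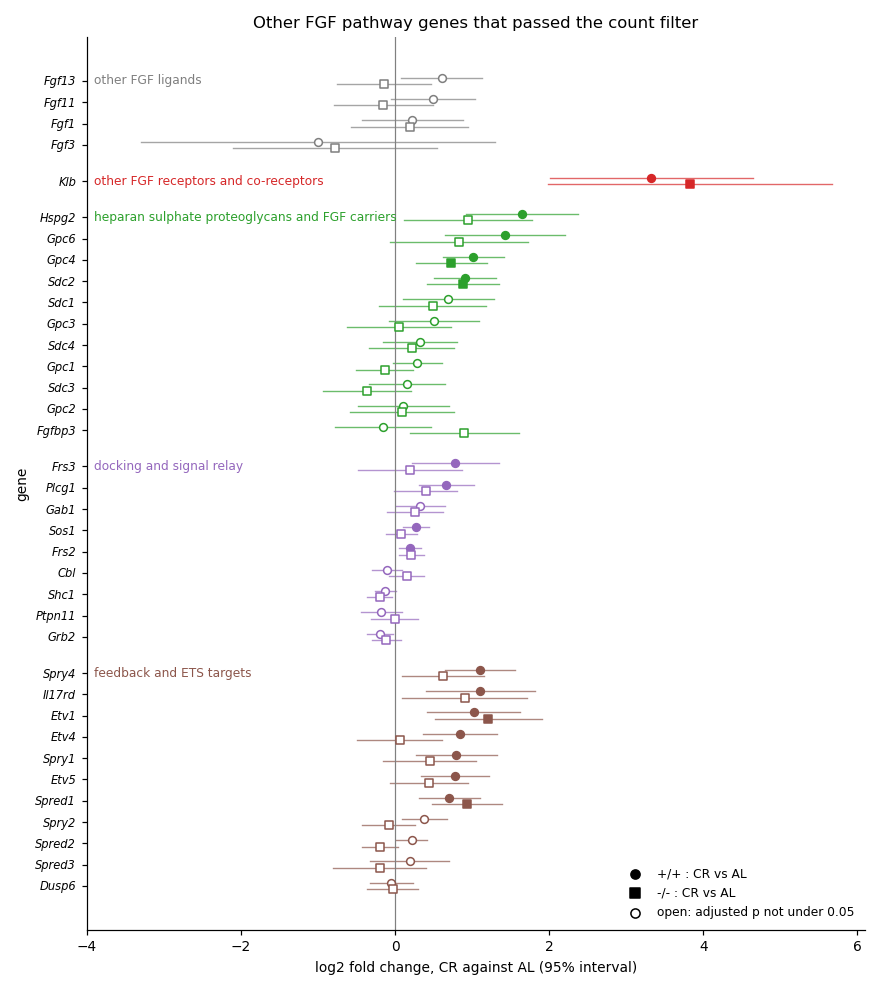
Log2 fold change of CR against AL with 95% intervals (horizontal axis) for the 36 tested pathway genes outside the 6 (vertical axis), circles for +/+ and squares for -/- mice, filled where the adjusted p is under 0.05. Klb lies furthest to the right in both genotypes, and 16 circles and 5 squares are filled, all on the side of higher levels under CR.

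Markers of several other cell types moved with the 6 genes. Under CR in BMAd-Pnpla2+/+ mice all 7 adipocyte and 5 of 6 endothelial markers rose, where 15.1% of all genes were called higher. So did 4 of 8 stromal reticular, 4 of 9 osteoblast and osteocyte and 2 of 4 macrophage markers. Of the pericyte and smooth muscle markers 1 of 5 rose, near the share of all genes. In the other direction, 4 of 6 neutrophil, 3 of 4 megakaryocyte and 2 of 5 B cell markers fell, as did 1934 of all 17671 genes. No chondrocyte, skeletal muscle, epithelial, Schwann cell or erythroid marker was called. The adipocyte markers summed to 651 to 1677 CPM under AL and 1838 to 4568 CPM under CR, the endothelial markers to 466 to 675 CPM and 573 to 1144 CPM, and the stromal markers to 4363 to 5408 CPM and 5119 to 9363 CPM. BMAd-Pnpla2+/+ CR replicate 4, the lowest of its group in all 6 genes, also had the highest erythroid sum, 32686 CPM. Its adipocyte, stromal, osteoblast, chondrocyte, endothelial and pericyte sums were the lowest of the group. Without that library all 6 genes were still called higher under CR, as were 3244 of 17618 genes. The part of these cells in the change of the 6 genes was not tested.

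In BMAd-Pnpla2-/- mice under CR, all 7 adipocyte markers rose as well, where 6.04% of all genes were called higher. So did 2 of 8 stromal markers and, near that share, 1 of 9 osteoblast markers. Of the endothelial markers 0 of 6 were called by edgeR. Of the B cell markers 2 of 5 fell, as did 985 of all 17671 genes. No marker of the other lists was called. Adipocyte sums went from 296 to 671 CPM to 1183 to 1912 CPM. The skeletal muscle markers summed to 9.44, 34.1 and 101 CPM in the 3 CR libraries against 10.3 to 13.6 CPM in the AL libraries, and the keratin genes Krt5 and Krt14 were at 0 in all 14 libraries. The share of these markers in the values of the 6 genes was not tested.

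**Figure D5:**
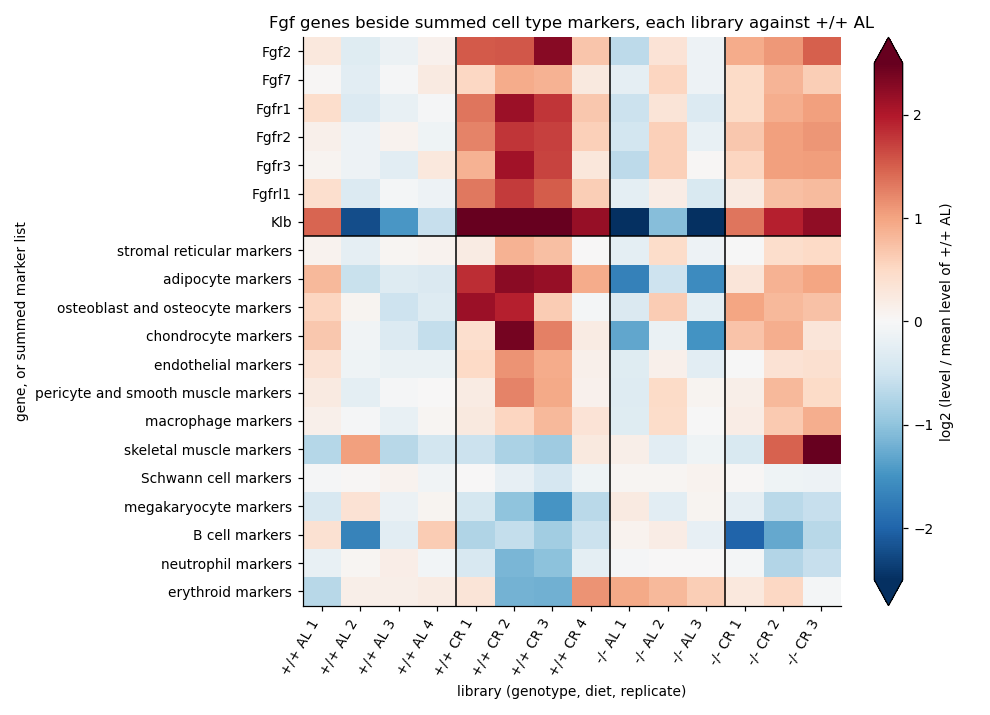
Level in each of the 14 libraries (horizontal axis) relative to the mean of +/+ AL, as log2 on a colour scale from -2.5 to 2.5, for the 6 genes and Klb (upper rows) and for the summed markers of 13 cell types (lower rows). Under CR the 6 genes are red, as mostly are the adipocyte, stromal, osteoblast, chondrocyte, endothelial, pericyte and macrophage markers. The red of the 6 genes is palest, among the +/+ CR libraries, in replicate 4, where the erythroid markers sum to 32686 CPM.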

How the data were processed

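RNA of 14 marrow libraries was sequenced by the authors as read pairs, with a strand-specific preparation stated, although the counts of 3 libraries carry no strand information. Per the labels, reads were checked with FastQC 0.11.9 and aligned to mm10 with STAR, and the deposited counts give, for each library and gene, the read pairs assigned without strand and on each strand, not normalized. A deposited matrix of raw counts holds reverse-strand counts for 11 libraries and unstranded counts for the 3 BMAd-Pnpla2-/- CR libraries, so the unstranded counts were used for all 14. The latter are all the libraries of their group, so library type and group cannot be told apart in any comparison with it. Between 21.1 and 25.6% of read pairs were assigned to no single gene and left out. No interval for counting error is given, since the spread between libraries is larger than that of counting.

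Groups were taken from the labels. One model with 4 group means was fitted with edgeR 4.0.16 in R 4.3.3 (TMM scaling, filterByExpr, robust quasi-likelihood F test). Genes were called at a Benjamini-Hochberg adjusted p under 0.05 over the 17671 genes kept. The standard error is the log2 fold change over the root of F, and the 95% intervals follow from it. Fold changes kept edgeR's default prior count, and a prior count of 2 was used for the log2 CPM that were correlated. The fit was tested on simulated counts. The 6 genes, the pathway and marker lists and the rules were chosen with earlier results of these data known. Named genes were the 6, Pnpla2, up to 4 called genes of each pathway list by size, and the 3 most correlated genes of each of the 6. Gene models were matched to GENCODE M21 for 54349 of 55401 identifiers. Alternatives were the deposited matrix, RLE or total scaling, no filter, DESeq2 1.42.0, fits of the compared groups alone, a replicate block, reverse-strand counts and leaving out each library. Libraries of the same group differed by 14.9 to 138.3 in chi-square per degree of freedom, so none is a recount of another in its group. All 14 were counted as separate samples, although the statistic cannot tell whether libraries share a litter or preparation.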

Additional observations from a re-analysis of the deposited data

Results flagged for a closer look

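In the groups of 4 libraries, 54 sets of values were examined for a library far from the other 3, and 6 held one, where chance gives about 1 in 20. The log2 ratio of Fgfr1 to Fgfr2 per kilobase was 0.676 in BMAd-Pnpla2+/+ CR replicate 2, against 0.423 to 0.448 in the other 3 libraries of the group. The other 5 were sums of cell type markers in BMAd-Pnpla2+/+ AL libraries. Replicate 1 had the most adipocyte markers, 1677 CPM against 651 to 763, the most endothelial markers, 675 CPM against 466 to 487, and the fewest erythroid markers, 9306 CPM against 16608 to 17373. The same library had the highest Fgf2, Fgfr1, Fgfr2, Fgfrl1 and Klb of its group. Replicate 2 had the fewest stromal markers, 4363 CPM against 5245 to 5408, and the most skeletal muscle markers, 25.2 CPM against 7.48 to 8.96, and the lowest Fgf2, Fgf7, Fgfr1, Fgfr2 and Fgfrl1 of its group.

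In counts by strand, which the comparisons did not use, 34% of the reads assigned to Fgf2 lay on the opposite strand in the 11 libraries that keep strand, from 21.9 to 62.2% by library. Summed over these libraries, the share was at most 1.89% for the other 5 genes. The part of Nudt6 and of other antisense transcripts in these reads was not tested.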

How the results depend on the processing

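Over 756 refitted log2 fold changes of the 6 genes, 712 kept their direction and their side of the threshold, 9 lost a call, 17 gained one and 18 changed sign. For CR in BMAd-Pnpla2+/+ mice leave-one-out fits called 5 to 6 of the 6 genes, beside 2228 to 6029 of all genes in either direction. Fgf7 also missed the criterion of a log2 fold change over 1, and no other alternative lost a call. For CR in BMAd-Pnpla2-/- mice, where 1 gene was called, the number was 2 with the deposited matrix, 0 without a filter (Fgf2 then had an adjusted p of 0.0506), 3 with DESeq2, 3 with the compared groups alone, 2 with the replicate block, and 0 to 4 in leave-one-out fits. Among all genes, in either direction, 2052 were called in the fit reported above. These alternatives called, in turn, 3898, 1611, 3147, 2672 and 1831, and leave-one-out fits 243 to 2435. For genotype under CR, where none was called, DESeq2 called 1 and leave-one-out fits 0 to 2. Among all genes DESeq2 called 1638 there, and leave-one-out fits 0 to 2112. The cause of these differences was not tested. No call among the 6 was made for genotype under AL or the interaction in any fit. Averaged over genotypes 6 were called in each leave-one-out fit, beside 4454 to 6867 of all genes in either direction.

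Changes of sign concerned values near 0. For genotype under AL, the replicate block gave -0.145 for Fgfr2 and -0.144 for Fgfr3, and leave-one-out fits ran from -0.356 to 0.129 for Fgf2, -0.165 to 0.246 for Fgf7, -0.415 to 0.0462 for Fgfr1, -0.299 to 0.263 for Fgfr2, -0.256 to 0.342 for Fgfr3 and -0.306 to 0.037 for Fgfrl1. For Fgf7, genotype under CR was 0.0374 with the deposited matrix, 0.00388 with the compared groups alone and -0.122 to 0.0924 in leave-one-out fits, and the interaction ran from -0.298 to 0.112. Of 19 same-numbered pairs of libraries 7 had deviations correlated over 0.1, and the correlations of all ran from -0.376 to 0.326. Pairs with different numbers were not examined, so whether replicate numbers pair libraries is not known. Fits of the compared groups alone were not run for the interaction and the average, which use all 4 groups.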

Other observations

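Fgf3, an FGF ligand of embryonic development and singled out after its values were seen, was the gene of the pathway lists with the largest log2 difference between genotypes. It had 0, 6, 2 and 0 counts in the BMAd-Pnpla2+/+ AL libraries and 1, 3, 0 and 0 in the BMAd-Pnpla2+/+ CR libraries, against 31, 19 and 28 in the BMAd-Pnpla2-/- AL and 13, 18 and 16 in the BMAd-Pnpla2-/- CR libraries. All BMAd-Pnpla2-/- libraries lay above all BMAd-Pnpla2+/+ libraries. The share of all genes that separate the genotypes in this way was not computed, and the BMAd-Pnpla2-/- CR libraries carry no strand information. In edgeR's fit the log2 difference was 3.70 ± 0.73 (SE, adjusted p = 0.311, unadjusted p = 0.000166) under AL and 3.92 ± 0.84 (SE, adjusted p = 0.0587, unadjusted p = 0.000366) under CR, so that neither passed over all genes tested. At such low counts the size depends on the prior count, which was left at edgeR's default. DESeq2 gave an adjusted p of 0.00126 under AL and none under CR. Over the edgeR alternatives, the adjusted p ran from 0.182 upwards under AL and from 0.00613, with the deposited matrix, to 0.275 under CR, and the difference was positive in each. Fgf3 lies at chr7:144838083-144844436 (GRCm38), 3.38 megabases from the floxed gene Pnpla2 at chr7:141455198-141460743, both on the plus strand. Whether other genes between them differ was not tested.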
